A study of Mus musculus with 8 samples.

Results

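The 10 genes described here encode enzymes of serine, threonine and one-carbon metabolism: Phgdh, Psat1, Psph, Shmt1, Shmt2, Tdh, Gcat, Gldc, Mthfd2 and Ahcy. They were listed by name, and each was found under 1 identifier among the 17723 gene identifiers used. All 10 passed the filter on low values (an average of 1 FPKM or more across the 8 libraries) that left 11268 genes for testing. FPKM is a level in sequenced fragments, scaled to transcript length and to the number of mapped fragments.

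The samples were mouse E14TG2a embryonic stem (ES) cells of the 129/Ola strain, at passages 3 to 6: unedited cells (WT) and 3 lines edited with CRISPR/Cas9 to remove an enhancer (E1-KO, E2-KO and E3-KO). The 4 groups had 2 biological duplicates each. All groups grew without feeder cells in serum medium with leukemia inhibitory factor, the GSK3 inhibitor CHIR99021 and the MEK inhibitor PD0325901, and the medium held nonessential amino acids, a supplement that supplies serine and glycine. The labels do not give the enhancers' positions or say whether a line is 1 clone, and edited cells with intact enhancers were not analysed here, so the loss of an enhancer and other differences between the lines cannot be told apart.

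Serine is made from a glycolytic intermediate by Phgdh, Psat1 and Psph in turn. Serine hydroxymethyltransferases split it into glycine and a one-carbon unit carried by folate, and mitochondria make further units by cleaving glycine. Mouse ES cells are known for high threonine dehydrogenase, which feeds the same glycine and acetyl-CoA pools, and for their dependence on threonine. The one-carbon units go into nucleotides and into the methionine cycle, which supplies S-adenosylmethionine for methylation.

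In WT, Tdh had the highest level of the 10 genes at 275.6 ± 27.7 FPKM (SD, n = 2) and Psph the lowest at 16.29 ± 1.04 FPKM. Psat1 followed at 153.5 ± 3.84 FPKM, above Shmt2 (115.5 ± 11.5 FPKM), Shmt1 (104.7 ± 10.7 FPKM) and Ahcy (96.81 ± 2.08 FPKM). The WT samples of Shmt2 overlapped those of Shmt1, and those of Shmt1 overlapped Ahcy. Mthfd2 (65.18 ± 5.09 FPKM) and Phgdh (59.81 ± 3.37 FPKM) overlapped as well. Gldc (33.69 ± 0.816 FPKM) and Gcat (23.11 ± 1.8 FPKM) came next, each apart from its neighbours in the order.

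Against WT, the knockouts had lower levels of most of the 10 genes. In 7 of them (Phgdh, Psat1, Shmt1, Tdh, Gcat, Gldc and Mthfd2) all 6 knockout samples lay below both WT samples, an arrangement found in 28.5% of tested genes. Ahcy alone of the 10 lay above both WT samples in all 6, as did 15.3% of tested genes. With limma on log2(FPKM + 1) and a Benjamini-Hochberg adjusted p under 0.05 over all tested genes, 6 of the 10 were called in E1-KO, 6 lower and 0 higher, beside 38.0% of all genes (23.0% lower and 15.0% higher). In E2-KO 4 were called lower and 0 higher, beside 36.1% of all genes (22.0% lower and 14.2% higher). In E3-KO 7 were called lower and 1 higher, beside 44.7% of all genes (30.8% lower and 13.9% higher). At an unadjusted p under 0.05, 7, 7 and 9 of the 10 genes passed, beside 48.0%, 46.6% and 52.9% of all genes. Among them Ahcy was higher in E1-KO, and none was higher in E2-KO. Phgdh, Psat1, Gcat and Gldc were called lower in all 3 knockouts, as were 13.0% of tested genes. The 3 comparisons share the WT samples. With 1 library left out, the E1-KO count fell to 2 (without either WT library or E1-KO replicate 1) or 3 (without E1-KO replicate 2), the E2-KO count to 2 (without WT replicate 1) or 1 (without WT replicate 2), and the E3-KO count to 5 (without WT replicate 2).

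The median log2 fold change of the 10 genes was -0.34 in E1-KO, -0.34 in the E2-KO line and -0.55 in E3-KO, beside -0.06, -0.08 and -0.15 over all tested genes. Scaling by the median ratio set the median of all genes near 0 and evened the split of called genes in E3-KO from 1567 higher and 3470 lower to 2357 and 2371. Under that scaling, 4, 3 and 6 of the 10 genes were called lower in E1-KO, E2-KO and E3-KO, and Ahcy higher in E1-KO and E3-KO. Relative to the median of all genes, the E3-KO change was -0.88 for Phgdh, -0.82 for Gcat, -0.69 for Tdh, -0.67 for Mthfd2, -0.50 for Psat1, -0.31 for Shmt1, -0.29 for Gldc, -0.19 for Psph, 0.12 for Shmt2 and 1.22 for Ahcy.

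**Figure D1:**
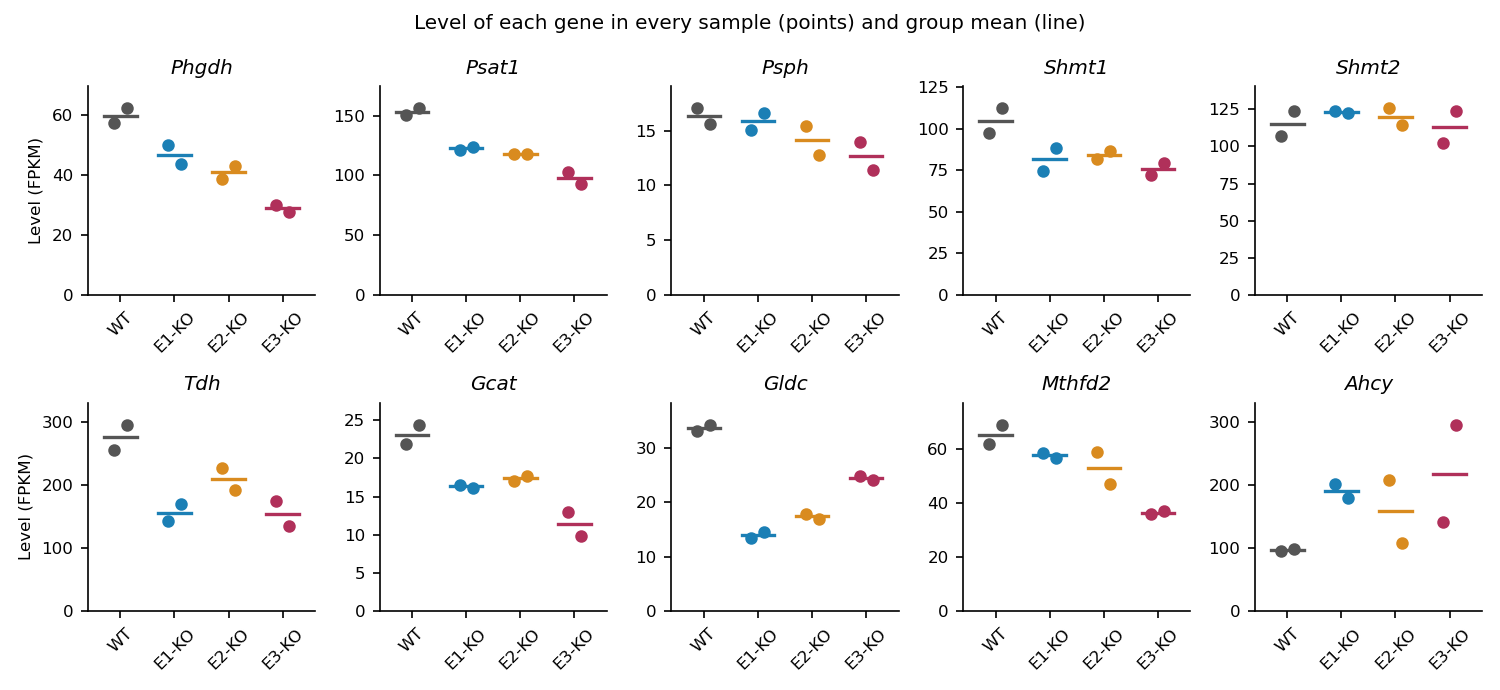
Level of each of the 10 genes in FPKM (vertical axes, from 0, each panel with its own range) in the 4 groups (horizontal axes). Points are samples and lines are group means of 2 samples. Both WT samples lie above every knockout sample in 7 panels, among them Phgdh, Tdh and Gldc, and below every knockout sample for Ahcy.

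**Figure D2:**
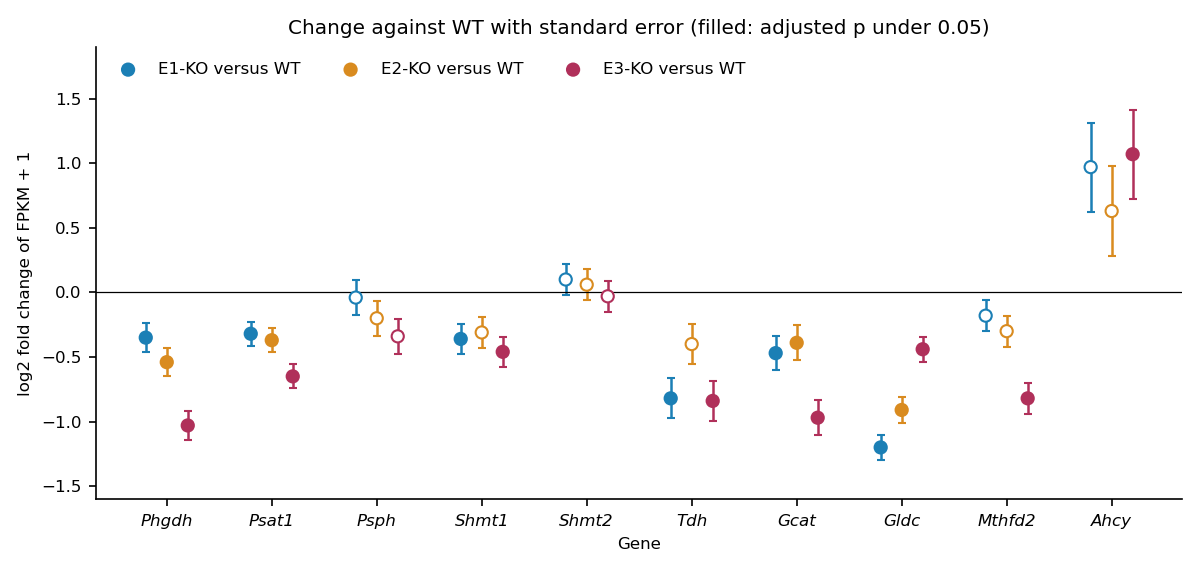
Log2 fold change of FPKM + 1 against WT for each gene (vertical axis) in E1-KO, E2-KO and E3-KO. Bars give the standard error, and filled points passed an adjusted p under 0.05. Gldc lies lowest in E1-KO (-1.20), Phgdh lies lowest in E3-KO (-1.03), Shmt2 stays near 0 and Ahcy lies above 0.

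Several facts of the libraries stand beside these values. Sox2, a pluripotency factor, was at 130.5 and 136.3 FPKM in WT, 58.0 and 60.3 in E1-KO, 113.6 and 97.5 in the E2-KO line, and 97.7 and 91.0 in E3-KO. All 12 markers of naive pluripotency had a mean of at least 1 FPKM, and their summed level was 2560 to 2710 FPKM in WT, 2210 to 2310 in E1-KO, 2440 to 2550 in the E2-KO line and 2080 to 2330 in E3-KO. The sum held markers on opposite sides of WT. Dppa3 was at 15.0 and 18.0 FPKM in WT, 1.65 to 2.84 in E1-KO and E2-KO, and 6.87 and 9.27 in E3-KO, and Klf4 was at 159.1 and 181.0 in WT and 68.9 to 87.9 in the knockouts, whereas Pou5f1 was at 360.0 and 381.6 in WT and 428.2 to 553.1 in the knockouts, and Sall4 at 103.4 and 111.6 and at 122.2 to 166.2. These 4 were named after their values were seen. Of the markers of other cell types, 3 of 6 trophectoderm genes reached that mean (summed level 38.1 to 41.3 FPKM in WT, 23.0 to 25.6 in E1-KO, 25.1 to 31.7 in E2-KO, 36.5 to 42.4 in E3-KO), as did 1 of 7 for primitive endoderm (1.59 to 1.65, 0.736 to 0.851, 1.03 to 1.23, 2.44 to 4.69). For neuroectoderm 4 of 6 did (15.4 to 17.3, 23.7 to 25.6 in E1-KO and E2-KO, 23.9 to 27.2 in E3-KO), for mesoderm 0 of 5 (1.95 to 3.19 over all samples), and for fibroblasts or feeder cells 1 of 8 (1.14 to 1.57 in WT, 2.4 to 3.89 in the knockouts). Values were present for only 5 of the 7 primitive endoderm genes and 4 of the 6 neuroectoderm genes. The part of such cells in the results was not tested. In bulk RNA, fewer cells of a type and less RNA per cell cannot be told apart. The absolute depth is unknown, and the depth relative to WT replicate 1 was estimated roughly at 0.787 to 1.011.

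The stretch before the transcription start is shown for the 4 genes called lower in all 3 knockouts, as RefSeq gives it for GRCm38.p6. Each runs 5′ to 3′ on the gene's strand, and capitals mark CCAAT or its reverse complement ATTGG, the element bound by the factor NF-Y. The stretches are chr15:79030624-79030873 (plus strand) for Gcat, chr19:30175442-30175691 (minus) for Gldc, chr3:98339991-98340219 (minus) for Phgdh and chr19:15925060-15925309 (minus) for Psat1, at the upstream of its 2 listed starts. The Phgdh stretch is 229 bases long because 21 bases nearest the start lie in an annotated exon. Another CCAAT of the Phgdh window, beginning 23 bases before the start, is cut by this trim and not marked. The Psat1 stretch lies inside the annotated span of the gene given below, 15904678 to 15947337. The windows of Mthfd2 and Shmt1 counted below also lie inside the spans of their genes. That of Psph lies partly inside, including its CCAAT matches.
Gcat: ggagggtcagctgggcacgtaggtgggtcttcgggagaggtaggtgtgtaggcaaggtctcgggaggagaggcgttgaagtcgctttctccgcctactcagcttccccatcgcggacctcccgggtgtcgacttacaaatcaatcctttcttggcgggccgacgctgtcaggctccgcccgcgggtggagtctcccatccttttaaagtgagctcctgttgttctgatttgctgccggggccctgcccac
Gldc: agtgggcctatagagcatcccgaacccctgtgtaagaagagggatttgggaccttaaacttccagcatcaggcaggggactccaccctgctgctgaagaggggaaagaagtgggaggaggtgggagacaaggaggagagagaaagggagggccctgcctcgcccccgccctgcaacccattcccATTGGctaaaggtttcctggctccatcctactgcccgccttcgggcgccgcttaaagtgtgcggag
Phgdh: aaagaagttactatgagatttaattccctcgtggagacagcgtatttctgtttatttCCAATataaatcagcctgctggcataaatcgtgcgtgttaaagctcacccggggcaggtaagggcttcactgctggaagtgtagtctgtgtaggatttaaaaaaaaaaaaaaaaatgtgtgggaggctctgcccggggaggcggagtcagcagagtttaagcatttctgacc
Psat1: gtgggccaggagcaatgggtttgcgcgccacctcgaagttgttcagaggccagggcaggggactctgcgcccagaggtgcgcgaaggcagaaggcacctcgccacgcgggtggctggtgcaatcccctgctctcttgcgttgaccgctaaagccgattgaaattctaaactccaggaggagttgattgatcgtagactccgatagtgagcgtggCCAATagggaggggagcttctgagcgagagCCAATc
Over the 250 bases before the start, 9 of the 10 genes had an entry, in 10 windows. CCAAT, searched on both strands, stood in 7 of the 10 windows (those of Ahcy, Phgdh, Psph, Mthfd2, Shmt1, Psat1 and Gldc) and in 33.8% of all 32851 windows. TGATGNAAN, the element of C/EBP and ATF factors, and CACGTG, the E-box, were in 0 of these windows, beside 3.44% and 6.02% of all windows. These are matches of letters, and no binding was measured.

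Phgdh, the first enzyme of serine synthesis (chromosome 3, 98313170 to 98339990 in GRCm38), was at 57.4 and 62.2 FPKM in WT, 49.9 and 43.5 in E1-KO, 38.7 and 43.0 in the E2-KO line, and 30.1 and 27.6 in E3-KO. Every knockout sample was below WT, and the E3-KO samples were below all others. Its mean was 78.1%, 68.2% and 48.2% of WT. The log2 fold change was -0.35 (SE 0.110, limma adjusted p 0.0331) in E1-KO, -0.54 (SE 0.110, adjusted p 0.006) in the E2-KO line and -1.03 (SE 0.110, adjusted p 0.000211) in E3-KO. The E1-KO call was lost under median-ratio scaling (adjusted p 0.0639), without the trend in limma (0.0519) and without any of the WT or E1-KO libraries (0.0579 to 0.217), and the E2-KO call without WT replicate 2 (0.0588). Of the 50-base windows of its transcripts, 47.8% also occur in transcripts of other genes, mostly the pseudogene Gm7901, which was not used here, so the split of reads between them is uncertain.

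Psat1, the aminotransferase of the second step (chromosome 19, 15904678 to 15947337), was at 150.8 and 156.3 FPKM in WT, 121.7 and 123.8 in E1-KO, 118.0 and 118.4 in the E2-KO line, and 102.7 and 92.7 in E3-KO. All knockout samples were below WT, and again E3-KO had the lowest pair. The changes were -0.32 (SE 0.0931, limma adjusted p 0.0249), -0.37 (adjusted p 0.0139) and -0.65 (adjusted p 0.000865) on the log2 scale. The E1-KO call was lost without any of the WT or E1-KO libraries (adjusted p 0.0951 to 0.153), and the E2-KO call without either WT library (0.0674 and 0.104). The level of Psat1 over that of Phgdh was 2.63 and 2.51 in WT, 2.44 to 3.05 in E1-KO and E2-KO, and 3.41 and 3.36 in E3-KO.

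Psph, the phosphatase that releases serine (chromosome 5, 129765558 to 129787449), was at 17.0 and 15.6 FPKM in WT, 15.1 and 16.6 in E1-KO, 15.4 and 12.8 in the E2-KO line, and 13.9 and 11.4 in E3-KO. The E1-KO samples overlapped WT, and those of E2-KO and E3-KO lay below it. None of the 3 changes passed the test, at -0.04 (SE 0.136, limma adjusted p 0.847, 95% confidence interval -0.35 to 0.27), -0.20 (adjusted p 0.282, interval -0.51 to 0.11) and -0.34 (adjusted p 0.067, interval -0.65 to -0.04). Without E3-KO replicate 1 the last was -0.48 with an adjusted p of 0.0361.

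Knockout samples lay below WT for the cytosolic serine hydroxymethyltransferase and overlapped WT for the mitochondrial one, a difference that was not tested. Shmt1, the cytosolic enzyme (chromosome 11, 60788104 to 60811718), was at 97.2 and 112.3 FPKM in WT, 74.8 and 88.3 in E1-KO, 81.9 and 86.9 in the E2-KO line, and 72.2 and 79.3 in E3-KO. All knockout samples lay below WT, the E1-KO samples overlapped both other knockouts, and those of E3-KO lay below those of E2-KO. Its changes were -0.36 (SE 0.118, limma adjusted p 0.04) in E1-KO, -0.31 (adjusted p 0.0718) in the E2-KO line and -0.46 (adjusted p 0.0124) in E3-KO. The E1-KO call was lost without the trend in limma (adjusted p 0.0611) and with no filter on low values (0.0644). Under median-ratio scaling none passed, at -0.29 in both E1-KO (adjusted p 0.0823) and E3-KO (0.0775). Leaving out E1-KO replicate 1, WT replicate 1 or WT replicate 2 ended the E1-KO call (0.0603 to 0.267), as leaving out E3-KO replicate 1 (0.0562) or WT replicate 2 (0.114) ended that of E3-KO. The E2-KO change passed under quantile normalization (-0.40, adjusted p 0.0353) and without the 50 highest genes (-0.36, adjusted p 0.0472).

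Shmt2, the mitochondrial enzyme (chromosome 10, 127517123 to 127522444), was at 107.3 and 123.6 FPKM in WT, 124.0 and 122.3 in E1-KO, 125.7 and 114.2 in the E2-KO line, and 102.1 and 124.1 in E3-KO. The groups overlapped. Its changes were 0.10, 0.06 and -0.03, with limma adjusted p of 0.566, 0.744 and 0.846 and 95% confidence intervals of -0.18 to 0.37, -0.22 to 0.33 and -0.31 to 0.24, and their sign moved with the scaling. The level of Shmt2 over that of Shmt1 was 1.10 in both WT samples and 1.31 to 1.66 in the 6 knockout samples, a description of the same values with no test.

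Tdh, threonine dehydrogenase (chromosome 14, 63492347 to 63509092), oxidizes threonine in mitochondria. It was at 256.0 and 295.2 FPKM in WT, 143.1 and 169.5 in E1-KO, 226.4 and 192.4 in the E2-KO line, and 174.6 and 134.9 in E3-KO. All knockout samples were below WT, those of E2-KO above those of E1-KO and E3-KO, which overlapped. Tdh was 56.7% of WT in E1-KO (log2 fold change -0.82, SE 0.155, limma adjusted p 0.00401) and 56.2% in E3-KO (-0.84, adjusted p 0.00276). The E2-KO change, to 76.0% of WT, was -0.40 with an adjusted p of 0.0748, and it passed under quantile normalization (-0.60, adjusted p 0.0105), without the 50 highest genes (-0.45, adjusted p 0.0273) and without either E3-KO library (0.0432 and 0.0435).

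Gcat, the ligase that turns the product of Tdh into glycine and acetyl-CoA (chromosome 15, 79030874 to 79038353), was at 21.8 and 24.4 FPKM in WT, 16.5 and 16.2 in E1-KO, 17.1 and 17.7 in the E2-KO line, and 13.0 and 9.83 in E3-KO. All knockout samples were below WT, and E3-KO was lowest at 49.3% of WT. Its changes were -0.47 (SE 0.134, limma adjusted p 0.0224), -0.39 (adjusted p 0.0491) and -0.97 (adjusted p 0.000712). The E2-KO call lay close to the threshold. It was lost under quantile normalization (adjusted p 0.0844), median-ratio scaling (0.082), no filter on low values (0.0813), limma without trend (0.0601), a pseudocount of 0.1 (0.0524), summed values of repeated identifiers (0.0503) and without any of the WT, E1-KO or E2-KO libraries (0.0765 to 0.249). The E1-KO call was lost without any of the WT or E1-KO libraries (0.0584 to 0.15). Of its transcript windows, 46.4% are shared with a second identifier of the same symbol, not used here. The level of Tdh over that of Gcat was 11.7 and 12.1 in WT and 8.67 to 13.7 in the knockouts.

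Gldc, the decarboxylase of the mitochondrial glycine cleavage system (chromosome 19, 30098447 to 30175429), was at 33.1 and 34.3 FPKM in WT, 13.5 and 14.7 in E1-KO, 17.9 and 16.9 in the E2-KO line, and 24.8 and 24.2 in E3-KO. No groups overlapped, and the order from low to high was E1-KO, E2-KO, E3-KO, WT. Gldc was 41.9%, 51.7% and 72.7% of WT, with changes of -1.20 (SE 0.0978, limma adjusted p 0.000109), -0.91 (adjusted p 0.000383) and -0.44 (adjusted p 0.00628). The E3-KO call was lost without WT replicate 2 (-0.42, adjusted p 0.0558). None of the other proteins of the same system, taken from a list of serine, glycine and threonine enzymes, was called lower. Gcsh, the lipoyl carrier protein, rose by 0.54 (limma adjusted p 0.00612), 0.87 (0.000807) and 0.57 (0.00382), the first of which was lost without WT replicate 1 (0.48, adjusted p 0.0551). Dld, the dehydrogenase it shares with pyruvate dehydrogenase, rose by 0.63 (adjusted p 0.0133), 0.50 (0.0356) and 0.61 (0.0123). Its E2-KO call was lost without E2-KO replicate 1 (0.22, adjusted p 0.159), with any WT or E1-KO library left out (0.0559 to 0.148), on the 4 samples alone (0.0713) and with no filter (0.0751). The Dld calls in E1-KO and E3-KO were lost without either WT library, and the first also without either E1-KO library (0.0548 to 0.0774). Amt, the aminomethyltransferase and the last member of the system, named after its values were seen, had changes of -0.01, 0.09 and 0.00 (adjusted p 0.971, 0.509 and 0.983).

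Mthfd2, the mitochondrial methylenetetrahydrofolate dehydrogenase (chromosome 6, 83305691 to 83325908), was at 61.6 and 68.8 FPKM in WT, 58.3 and 56.7 in E1-KO, 58.7 and 47.1 in the E2-KO line, and 36.0 and 36.9 in E3-KO. All knockout samples lay below WT, and those of E3-KO below all others. The changes were -0.18 (SE 0.119, limma adjusted p 0.271) in E1-KO, -0.30 (adjusted p 0.0749) in the E2-KO line and -0.82 (adjusted p 0.000895) in E3-KO. The E2-KO change passed under quantile normalization (-0.36, adjusted p 0.0229), without the 50 highest genes (-0.36, 0.0236) and without E2-KO replicate 1 (-0.46, 0.0213).

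In E3-KO, other genes of chromosome 6 were lower as well. Its 535 other tested genes had a median log2 fold change of -0.62 (quartiles -0.95 and -0.24), beside -0.14 for genes elsewhere, and 181 of them (33.8%) lay lower than Mthfd2. Their median was -0.05 in E1-KO and -0.07 in E2-KO. Relative to these genes, the E3-KO change of Mthfd2 was -0.20 (SE 0.116, limma adjusted p 0.185), and its call against WT was lost. The copy number of the chromosome was not measured. Mthfd2 is the only one of the 10 genes on chromosome 6.

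**Figure D3:**
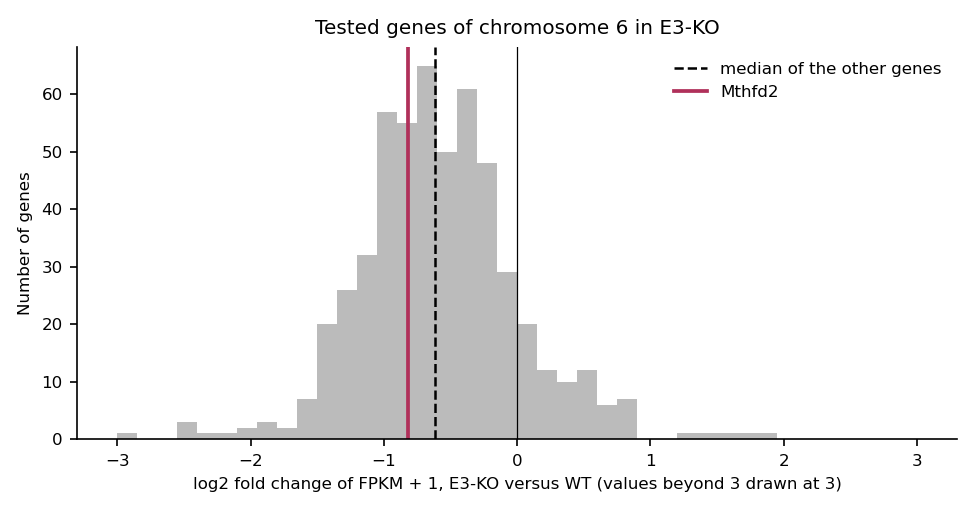
Number of tested chromosome 6 genes (vertical axis) by their log2 fold change of FPKM + 1 in E3-KO against WT (horizontal axis, values beyond 3 drawn at 3). The dashed line is the median of the 535 other genes (-0.62) and the coloured line is Mthfd2 (-0.82), which lies inside the bulk of the distribution.

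Ahcy hydrolyses S-adenosylhomocysteine, the product of methylation reactions (chromosome 2, 155059310 to 155074497). It was at 95.3 and 98.3 FPKM in WT, 202.0 and 180.1 in E1-KO, 207.9 and 109.1 in the E2-KO line, and 141.4 and 296.0 in E3-KO. All knockout samples were above WT, but replicates of E2-KO and of E3-KO lay far apart, with means of 158.5 ± 69.9 and 218.7 ± 109 FPKM (SD, n = 2). The changes were 0.97 (SE 0.345, limma adjusted p 0.052) in E1-KO, 0.63 (adjusted p 0.181) in the E2-KO line and 1.07 (adjusted p 0.0318) in E3-KO. The E3-KO call was lost without E3-KO replicate 2 (0.54, adjusted p 0.21), WT replicate 1 (0.113) or WT replicate 2 (0.108), and with no filter on low values (0.0858). Fitted on the 4 samples of E1-KO and WT alone, the E1-KO change passed (adjusted p 0.000309), as it did under median-ratio scaling (1.04, 0.0451) and without any single E2-KO or E3-KO library (0.0192 to 0.0282). Without E2-KO replicate 2 the E2-KO change was 1.09 (adjusted p 0.0445), and without E2-KO replicate 1 it was 0.17.

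Of the 50-base windows of Ahcy transcripts, 66.0% also occur in Gm4737, a single-exon copy on chromosome 16 (46152985 to 46155077), so the split of reads between both genes is uncertain. Gm4737 was at 55.0 and 61.3 FPKM in WT, 51.9 and 50.4 in E1-KO, 56.5 and 67.8 in the E2-KO line, and 46.0 and 39.9 in E3-KO. In E2-KO and E3-KO the replicate with the higher Ahcy had the lower Gm4737, and in WT and E1-KO it had the higher Gm4737. It was called lower in E3-KO (-0.43, limma adjusted p 0.0180), a call lost under median-ratio scaling (-0.26, 0.0988), without E3-KO replicate 2 (-0.33, 0.093) and without WT replicate 2 (-0.35, 0.133). The summed level of both was 150.3 and 159.6 FPKM in WT, 253.9 and 230.5 in E1-KO, 264.4 and 176.8 in the E2-KO line, and 187.4 and 335.9 in E3-KO, still above WT in all 6 knockout samples. None of the summed changes passed, at 0.64 (adjusted p 0.0792), 0.48 (0.177) and 0.69 (0.055).

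**Figure D4:**
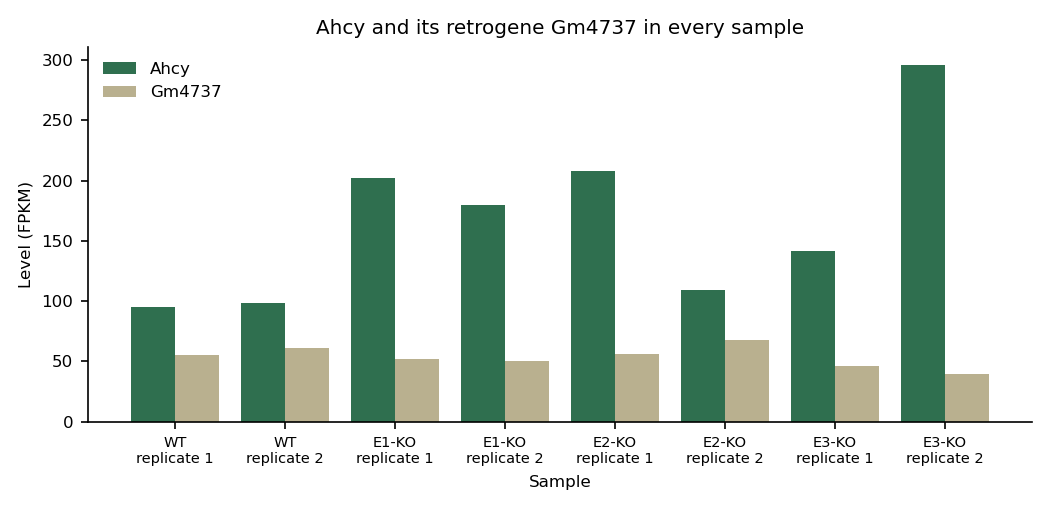
Level in FPKM (vertical axis, from 0) of Ahcy and its copy Gm4737 in each of the 8 samples (horizontal axis). Ahcy spans 109.1 to 296.0 FPKM over the knockout samples against 95.3 and 98.3 in WT, while Gm4737 spans 39.9 to 67.8 over all samples.

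The knockouts were next set against each other in the same fit of 8 samples, to whose estimate of the spread the WT samples contribute. Between E2-KO and E1-KO limma called 0 of the 10 genes and 0.834% of all genes (0.488% higher and 0.346% lower in E2-KO), that is 94 genes, and 28 genes without either WT library. With other single libraries left out it was 2 (E2-KO replicate 1), 6 and 10 (E1-KO replicates 1 and 2), 52 (E2-KO replicate 2), and 263 and 262 (E3-KO replicates 1 and 2). At an unadjusted p under 0.05, Gldc (0.29 higher in E2-KO, adjusted p 0.175) and Tdh (0.42 higher, adjusted p 0.201) passed, as did 18.5% of all genes. E3-KO differed from E1-KO in 5 of the 10 genes, where 25.8% of all genes were called (9.41% higher and 16.4% lower in E3-KO). Gldc was higher in E3-KO by 0.76 (SE 0.0978, adjusted p 0.000965), whereas Phgdh (-0.67, 0.00288), Mthfd2 (-0.64, 0.00488), Gcat (-0.49, 0.0258) and Psat1 (-0.33, 0.031) were lower. Against E2-KO, where 15.6% of all genes were called (5.48% higher and 10.1% lower in E3-KO), 4 of the 10 passed: E3-KO had higher Gldc (0.47, adjusted p 0.0147) and lower Gcat (-0.58, 0.0213), Mthfd2 (-0.52, 0.0205) and Phgdh (-0.49, 0.0201). Relative to the other chromosome 6 genes, Mthfd2 differed by -0.07 (adjusted p 0.69) from E1-KO and by 0.03 (0.889) from E2-KO. By the group means, E3-KO was nearest to WT for Gldc and Shmt2, of which the Shmt2 groups overlapped. E3-KO was farthest from WT for Phgdh, Psat1, Psph, Shmt1, Tdh, Gcat, Mthfd2 and Ahcy. For Tdh this was narrow, at 56.2% of WT in E3-KO and 56.7% in E1-KO. The Psat1 difference between E3-KO and E2-KO did not pass (-0.27, adjusted p 0.0781). The Gldc and Phgdh differences from E1-KO kept their calls under each scaling and with each library left out, whereas that of Psat1 was lost under each other scaling (adjusted p 0.0748 to 0.103) and without any WT or E1-KO library or E3-KO replicate 2 (0.0649 to 0.158), and that of Gcat without either E1-KO library or E3-KO replicate 2 (0.100 to 0.127). Between E3-KO and E2-KO, 0 of the 10 genes passed when those 4 samples were fitted alone, and Gldc kept its call with each library left out (adjusted p 0.0295 to 0.0453) but Gcat, Mthfd2 and Phgdh did not (up to 0.0822). The count against E1-KO was 3 without either E1-KO library or E3-KO replicate 2, and that against E2-KO was 2 without either E2-KO library and 1 without E3-KO replicate 2.

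Other genes of the same metabolism were taken from 5 lists with 65 genes in all, of which 54 were tested. Among these 54, 8 were called higher and 24 lower in E1-KO, 7 and 19 in the E2-KO line, and 9 and 22 in E3-KO, with medians of -0.28, -0.22 and -0.31. Over all tested genes, 15.0%, 14.2% and 13.9% were called higher and 23.0%, 22.0% and 30.8% lower, with medians of -0.06, -0.08 and -0.15, the background for the counts of each list.

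**Figure D5:**
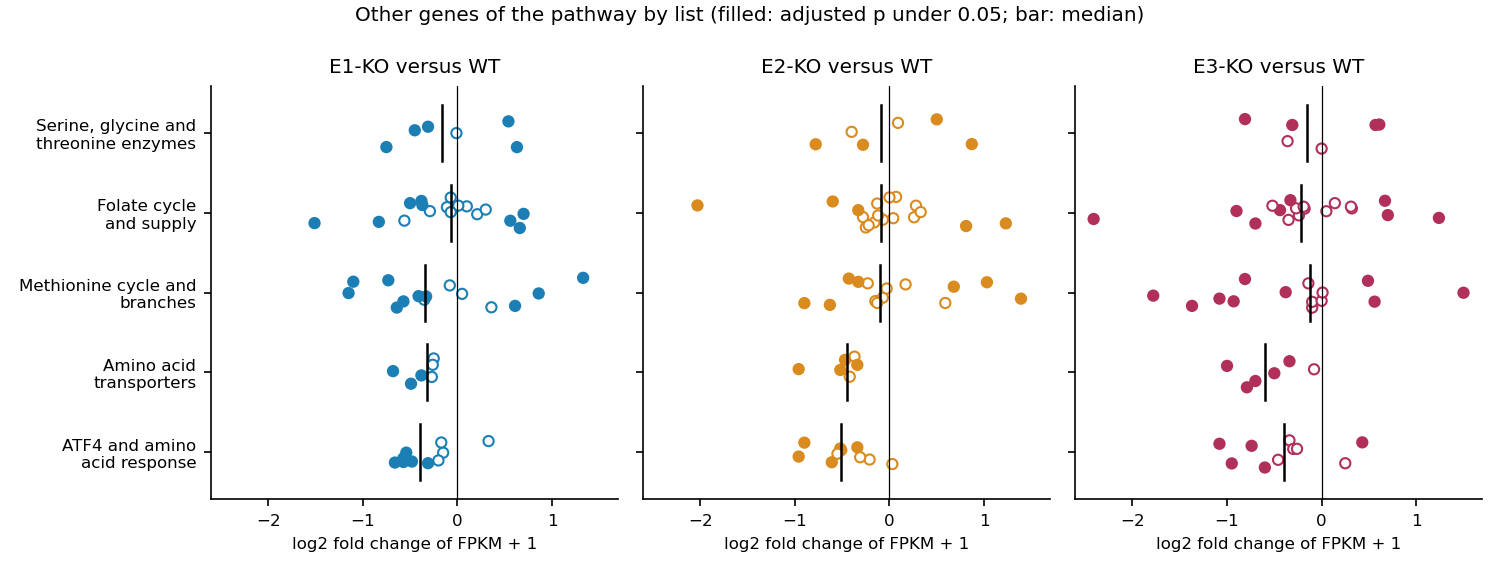
Log2 fold change of FPKM + 1 against WT (horizontal axes) of each tested gene of the 5 lists (vertical axis) in the 3 knockouts. Filled points passed an adjusted p under 0.05 and bars are list medians. The tested transporters all lie below 0, with medians of -0.32, -0.45 and -0.60.

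Besides Gcsh and Dld, the list of serine, glycine and threonine enzymes (6 of 11 tested) had 3 genes called lower in E1-KO and 2 each in the E2-KO line and E3-KO, with medians of -0.16, -0.10 and -0.15. Of the 5 calls in E1-KO, median-ratio scaling gave 3, leaving out WT replicate 1 gave 1, and leaving out WT replicate 2 or either E1-KO library gave 2. Of the 4 in E2-KO and in E3-KO, leaving out either WT library gave 2, as did leaving out either E1-KO library in E2-KO. Sptlc1, a subunit of the serine palmitoyltransferase that starts sphingolipid synthesis, fell by 0.75 (limma adjusted p 0.00626), 0.78 (0.0057) and 0.81 (0.00331).

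Of the folate cycle and folate supply list (18 of 19 tested), 3 genes were called higher and 5 lower in E1-KO, 2 and 3 in the E2-KO line, and 3 and 5 in E3-KO, with medians of -0.07, -0.09 and -0.21. Without WT replicate 1 the number called was 4 in E1-KO and 5 in E3-KO, without WT replicate 2 it was 5, 3 and 4, and without E1-KO replicate 1 it was 5 in E1-KO. Aldh1l1, which oxidizes formyltetrahydrofolate to release carbon dioxide, was at 18.5 and 20.8 FPKM in WT, 6.38 and 6.09 in E1-KO, 3.76 and 4.36 in the E2-KO line, and 2.64 and 3.15 in E3-KO. No knockout sample overlapped WT, at changes of -1.51 (limma adjusted p 0.000168), -2.03 (5.8e-05) and -2.41 (3.16e-05), and the last was -1.79 (7.78e-05) relative to the other genes of its chromosome 6. Folr1, a folate receptor, rose by 0.56 (E1-KO, adjusted p 0.0145), 1.23 (E2-KO, 0.000495) and 1.24 (E3-KO, 0.000284). Tyms, thymidylate synthase, was likewise called higher in every knockout, at 0.66 (E1-KO, adjusted p 0.00234), 0.81 (E2-KO, 0.000996) and 0.70 (E3-KO, 0.00132). Fpgs, which adds glutamates to folate, rose by 0.70 in E1-KO (adjusted p 0.00221). It did not pass in E2-KO (0.28, 0.0891) or E3-KO (0.05, 0.77). Ggh, which removes these glutamates, was called lower at -0.83 (E1-KO, adjusted p 0.00491) and -0.70 (E3-KO, 0.00815). Its E2-KO change did not pass (-0.28, 0.209). Mthfd1l, the mitochondrial formyltetrahydrofolate synthetase, was called lower at -0.38 (E1-KO, adjusted p 0.0471), -0.60 (E2-KO, 0.0083) and -0.90 (E3-KO, 0.000938).

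The list of the methionine cycle, transsulfuration and polyamine branch (14 of 16 tested) held 3 genes called higher in each knockout and 7, 4 and 6 called lower, with medians of -0.34, -0.10 and -0.12. Without E1-KO replicate 1 the E1-KO calls numbered 6 in place of 10. Sms, spermine synthase, was at 55.1 and 54.0 FPKM in WT and at 133.9 to 161.2 FPKM in the knockouts. Its changes were 1.33 (limma adjusted p 6.64e-05), 1.39 (7.14e-05) and 1.50 (4.27e-05). Srm, spermidine synthase, rose by 0.86 in E1-KO (adjusted p 0.000491), 1.03 in E2-KO (0.000288) and 0.56 in E3-KO (0.0026). Cbs, the first enzyme of transsulfuration, fell by 1.15 in E1-KO (adjusted p 0.00084), 0.90 in E2-KO (0.00297) and 1.08 in E3-KO (0.000846). Bhmt, which remethylates homocysteine from betaine, fell by 1.10 in E1-KO (adjusted p 0.00719) and 1.78 in E3-KO (0.000602). The E1-KO call of Bhmt was lost without E1-KO replicate 1, at -0.82. The related Bhmt2 fell by 0.64 in E1-KO (adjusted p 0.01) and 1.37 in E3-KO (0.000232). Neither passed in E2-KO, at -0.15 (adjusted p 0.647) and -0.23 (0.267).

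Amino acid transporters (6 of 9 tested) had 0 genes called higher and 3, 4 and 5 called lower, where 23.0%, 22.0% and 30.8% of all genes were called lower. All 6 tested had values below 0 in each knockout, so none was higher at an unadjusted p under 0.05 either. Slc1a4, a carrier of alanine, serine and cysteine, fell by 0.68 (limma adjusted p 0.0109), 0.96 (0.00269) and 1.00 (0.00155). Slc3a2, the heavy chain of several carriers, fell by 0.38 (adjusted p 0.0259), 0.47 (0.0104) and 0.79 (0.00076). Its E1-KO call was lost without any of the WT or E1-KO libraries (-0.45 to -0.30). Slc38a2 fell by 0.49 in E1-KO (adjusted p 0.00645), 0.52 in E2-KO (0.0051) and 0.34 in E3-KO (0.0244). Slc1a5 fell by 0.70 in E3-KO (adjusted p 0.00579) but did not pass in E1-KO (-0.25, 0.229) or E2-KO (-0.37, 0.0842). The E3-KO call of Slc1a5 (-0.49) was lost without WT replicate 2. So were the E2-KO calls of Slc3a2 (-0.40) and Slc38a2 (-0.46). Without WT replicate 2 the counts were 0, 1 and 2, and without E1-KO replicate 2 that of E1-KO was 0.

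Atf4, the transcription factor that drives serine synthesis and amino acid uptake genes under amino acid shortage, belongs to the last list, and its own change was -0.15 (limma adjusted p 0.401), -0.31 (0.0937) and -0.34 (0.0653). All 10 genes of the list were tested, with 0 called higher and 6 lower in E1-KO, 0 and 6 in the E2-KO line, and 1 and 4 in E3-KO, at medians of -0.40, -0.51 and -0.40. The E3-KO count of 4 lower is near the 30.8% of all genes called lower there, beside 23.0% and 22.0% in the other knockouts. Pycr1, of proline synthesis, fell by 0.57 (adjusted p 0.00613), 0.61 (0.00506) and 1.08 (0.000241). Its E1-KO and E2-KO calls were lost without WT replicate 2 (-0.46 and -0.50). Ddit4, an inhibitor of mTORC1 signalling, fell by 0.66 in E1-KO (adjusted p 0.0245) and 0.96 in E2-KO (0.00569), but did not pass in E3-KO (-0.3, 0.229). The E1-KO call of Ddit4 was lost with no filter (adjusted p 0.0623). It was also lost without E1-KO replicate 2 (-0.45), WT replicate 1 (-0.76) or WT replicate 2 (-0.57). Its E2-KO call was lost without WT replicate 2 (-0.86). The lipoprotein receptor gene Vldlr was low, at 2.11 and 1.98 FPKM in WT and 0.534 to 1.14 FPKM in the knockouts. Vldlr fell by 0.57 (adjusted p 0.0191), 0.90 (0.00289) and 0.60 (0.0125). Its E1-KO call was lost without any of the WT or E1-KO libraries (-0.62 to -0.51). Aldh18a1, also of proline synthesis, fell by 0.31 (adjusted p 0.0344), 0.52 (0.00428) and 0.74 (0.000608). Asns, asparagine synthetase, fell by 0.54 in E1-KO (adjusted p 0.0105) and 0.95 in E3-KO (0.000644), and did not pass in E2-KO (-0.21, 0.231). Asns lies on chromosome 6, and its E3-KO change relative to the other genes of that chromosome was -0.33 (0.0509). The gene called higher in E3-KO was Ddit3, a stress factor (0.43, adjusted p 0.021), named after its value was seen. Leaving out single libraries moved the number called to 1 in E1-KO and 2 in E2-KO (without WT replicate 2), to 3 in E1-KO (without WT replicate 1 or either E1-KO library), and in E3-KO to 3 (without E3-KO replicate 1 or either WT library) or 8 (without either E2-KO library).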

How the data were processed

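Total RNA of 8 mouse ES cell samples (4 groups of 2) was sequenced as paired-end reads of 150 bases after library preparation with a total RNA kit, per the labels' protocols. Trimmomatic 0.36, TopHat2 2.0.12, Cufflinks 2.2.1 and the build mm9 are named in the submitters' processing notes, with no role or order. The authors deposited for each sample a list that pairs gene identifiers with values, whose unit no header states, and the values were taken as FPKM, since they are not whole numbers and their sums differ between samples (454974 to 532007).

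Each list had 18774 rows and 17812 identifiers, of which 17262 matched a symbol. Of 660 identifiers with several rows, the row at the gene's place in the file order was kept for 571 and 89 were left out. Each of the 10 genes had 1 row. The files hold no coordinates: positions come from GENCODE M21 on GRCm38 and promoters from RefSeq GRCm38.p6, not from mm9.

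Genes averaging 1 FPKM or more were tested on log2(FPKM + 1) with limma 3.58.1 in R 4.3.3 (with a trend, all 8 samples in 1 fit, the group as the only term, 4 residual degrees of freedom, two-sided, Benjamini-Hochberg adjustment over 11268 genes, called under 0.05). Fold changes on this scale understate the change of low genes. The script was tested on simulated data. The 10 genes and the lists were chosen with earlier results of these data known. Besides them, the genes named were Sox2, Gm4737, up to 3 called genes per list and comparison with the largest absolute change, and those said to be chosen after their values were seen. Where a list gene was among those 3 in only some comparisons with WT, its other changes were not refitted with other settings. Shared sequence was counted as windows of 50 bases that occur in transcripts of more than 1 gene. Absolute depth is unknown, so no interval from counting error is given, and relative depth came from the most frequent ratio of values under 0.3 FPKM, which held 7.9% to 14.0% of ratios. With n = 2 per group, p-values set each change against a spread pooled over the duplicates of all 4 groups. In limma that spread is drawn toward the spread of other genes of similar level. The labels do not detail the origin of the biological duplicates. The 6 comparisons of the 4 groups were refitted with other scalings, filters, pseudocounts and thresholds, with a replicate block, and without each library. The sum of Ahcy and Gm4737 was added after seeing the data.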

Additional observations from a re-analysis of the deposited data

Results flagged for a closer look

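The comparisons of knockouts with each other gave 9 differences among the 10 genes, each tested by limma within the fit of all samples. E3-KO lay below E1-KO for Phgdh (-0.67), Mthfd2 (-0.64), Gcat (-0.49) and Psat1 (-0.33), and above it for Gldc (0.76). E3-KO lay below E2-KO for Gcat (-0.58), Mthfd2 (-0.52) and Phgdh (-0.49), and above it for Gldc (0.47). The Mthfd2 differences were -0.07 and 0.03 relative to the other genes of chromosome 6.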

How the results depend on the processing

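Gldc in E1-KO and E2-KO, Phgdh, Psat1, Gcat and Tdh in E3-KO, and Tdh in E1-KO kept their calls against WT under every scaling, filter and pseudocount tried and with each library left out. Over the 10 genes and 6 comparisons, leaving out a library gave 405 values on the same side of the threshold with the same direction, 46 that lost the call, 10 that gained it and 19 that changed sign, and the other settings gave 699, 66, 10 and 14. With an adjusted p under 0.01, the 10 genes had 2 calls in E1-KO, 2 in E2-KO, 3 for E3-KO against E1-KO and 0 for E3-KO against E2-KO, and all genes had 2249, 2091 and 3057 calls against WT, 0 between E2-KO and E1-KO, 1412 for E3-KO against E1-KO and 575 for E3-KO against E2-KO. When an absolute log2 fold change of 1 or more was required as well, the 10 genes had 1, 0 and 2 calls against WT and 0 in both comparisons of E3-KO with another knockout, and all genes 707, 653 and 935 against WT, 41 (E2-KO and E1-KO), 560 (E3-KO and E1-KO) and 267 (E3-KO and E2-KO). Fitting the 4 samples of a pair alone gave 3 and 0 of the 10 genes for E3-KO against E1-KO and E2-KO, 671 genes between E3-KO and E2-KO and 1 between E2-KO and E1-KO. Scaling without the 50 highest genes called 7 of the 10 genes in E2-KO in place of 4. The count of all genes between E2-KO and E1-KO, 94 as reported, was 1 with no filter and 58 with a mean of at least 5 FPKM. Leaving out single libraries gave 2 to 7, 1 to 5 and 5 to 8 of the 10 genes against WT, 0 to 0 for E2-KO and E1-KO, 3 to 5 for E3-KO and E1-KO and 1 to 4 for E3-KO and E2-KO. For all genes it gave 2024 to 4679, 1853 to 4453, 2811 to 5352, 2 to 263, 1302 to 3287 and 982 to 1555 in the same order.

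Deviations of replicate 1 from the group mean were hardly correlated between groups (-0.042 to 0.089 over 6 pairs of groups). No strong shift shared by replicate number was seen, which cannot show that the samples were unpaired. With a replicate block, 6, 4 and 8 of the 10 genes were called against WT, and 31 genes in all were called between E2-KO and E1-KO. The block ended the call of Gcat in E2-KO (adjusted p 0.0662) and gave one for Shmt1 there (0.0407).

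Signs changed for values that passed in neither setting, apart from Mthfd2 between E3-KO and E2-KO, which was 0.03 relative to chromosome 6. Under quantile normalization Psph in E1-KO was 0.08, Shmt2 -0.01 in E1-KO, -0.06 in E2-KO and 0.03 for E3-KO against E2-KO, and Tdh 0.08 between E3-KO and E1-KO. Under median-ratio scaling Psph in E1-KO was 0.03, Shmt2 0.14 in E3-KO and 0.00 for E3-KO against E2-KO, and Tdh 0.08 and Shmt1 0.00 between E3-KO and E1-KO. Without the 50 highest genes Shmt2 was 0.03 in E3-KO and 0.03 for E3-KO against E2-KO, and Tdh 0.06 between E3-KO and E1-KO. With single libraries left out, values spanned 0 for Psph in E1-KO (-0.10 to 0.03), for Shmt2 in E1-KO (-0.01 to 0.20), E2-KO (-0.05 to 0.16) and E3-KO (-0.17 to 0.11), and for Gm4737 in E2-KO (-0.04 to 0.22). Between E2-KO and E1-KO this held for Shmt1 (-0.06 to 0.17), Shmt2 (-0.11 to 0.03), Mthfd2 (-0.28 to 0.03) and Ahcy (-0.80 to 0.12). Between E3-KO and E1-KO it held for Tdh (-0.21 to 0.16), Shmt1 (-0.22 to 0.02), Shmt2 (-0.27 to 0.01) and Ahcy (-0.43 to 0.63). Between E3-KO and E2-KO it held for Shmt2 (-0.23 to 0.05) and Ahcy (-0.09 to 0.97). The cause was not tested. Unknown depth and 2 samples per group limit the precision of each value.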
